A study of Homo sapiens with 6 samples.

Results

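Chemokines are small secreted proteins that attract leukocytes, and their receptors are seven-helix membrane proteins that signal through inhibitory G proteins. The genes were taken by symbol: every probe set of the array whose platform annotation gives 1 symbol only, made of CCL, CXCL, CCR or CXCR and a number, or CX3CL1, CX3CR1, XCL1 or XCR1. This found 78 probe sets of 52 genes, out of 19775 genes with a probe set of their own, and split into 36 ligands and 16 receptors. Where a gene had several probe sets, the one with the highest average log2 value on the 6 arrays stood for it. Of the 52 genes, 9 exceeded an intensity of 16 (a log2 value of 4, the filter used throughout) on at least 1 array, and 43 stayed at or below it on all 6.

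The cells were U937T:PLZF-RARa, a line engineered from human monocytic U937 cells. It expresses PLZF-RARA, a fusion protein known from a rare acute promyelocytic leukaemia, when tetracycline is absent. The 3 induced samples had been washed and grown for 48 h in medium without tetracycline, and the 3 uninduced samples in medium with it; all 6 carried the fusion construct and were grown with puromycin and G418. RNA of each sample was hybridised to 1 Affymetrix HG-U133 Plus 2.0 array. No line without the fusion was compared, so expression of the fusion and removal of the drug cannot be told apart. The labels do not say whether replicates were separate cultures or whether the line is 1 clone, and p-values therefore measure only the spread between these samples.

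Neutrophil-attracting CXC chemokines such as CXCL8 act on CXCR1 and CXCR2. CC chemokines such as CCL5 and CCL23 act on CCR1, among other receptors, and draw monocytes and lymphocytes. CX3CR1 and CXCR4 respond to CX3CL1 and CXCL12, and CXCR3 to the interferon-induced CXCL9, CXCL10 and CXCL11. In monocytes and macrophages the set of chemokine genes and receptors in use is known to shift with activation and maturation.

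All 4 measured ligands fell on induction, and among the 5 measured receptors CCR1, CX3CR1 and CXCR3 rose, CXCR2 fell, and CXCR4 showed a small rise that was lost in 9 of 15 alternatives. Over all genes tested, 35.8% were called higher and 30.7% lower in induced samples, so these counts are not read as particular to the family. CXCL6 passed the filter only through the uninduced arrays and CXCR3 only through the induced ones, so both had to differ. By measured log2 difference, CXCL8 came lowest and CX3CR1 highest of the 9. Promoter sequence is shown for the ligands that fell and have an entry in the RefSeq promoter table (GRCh38.p14), which held 39 of the 52 genes and 8 of the 9 measured ones; CCL5 was the other. Each line gives the 250 bases before the most upstream start, on the gene's strand, for CXCL8 at chr4:73740319-73740568 (plus strand), CXCL6 at chr4:73836428-73836677 (plus strand) and CCL23 at chr17:36017973-36018222 (minus strand). Capitals mark matches, on either strand, to the letters GGNNNTTCC (a loose form of the NF-kB site), TGANTCA (AP-1), GAGGAA (PU.1 and related ETS factors) and AGGTCA (the half-site of nuclear receptors such as RARA).
CXCL8: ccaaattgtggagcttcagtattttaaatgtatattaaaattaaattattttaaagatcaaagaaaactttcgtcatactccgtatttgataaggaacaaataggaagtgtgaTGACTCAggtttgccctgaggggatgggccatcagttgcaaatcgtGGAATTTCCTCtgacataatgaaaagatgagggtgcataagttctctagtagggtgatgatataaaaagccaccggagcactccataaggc
CXCL6: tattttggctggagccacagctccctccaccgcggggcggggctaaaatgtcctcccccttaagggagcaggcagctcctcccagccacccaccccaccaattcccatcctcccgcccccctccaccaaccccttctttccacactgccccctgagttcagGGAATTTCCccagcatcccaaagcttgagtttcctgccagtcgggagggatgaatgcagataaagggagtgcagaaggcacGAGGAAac
CCL23: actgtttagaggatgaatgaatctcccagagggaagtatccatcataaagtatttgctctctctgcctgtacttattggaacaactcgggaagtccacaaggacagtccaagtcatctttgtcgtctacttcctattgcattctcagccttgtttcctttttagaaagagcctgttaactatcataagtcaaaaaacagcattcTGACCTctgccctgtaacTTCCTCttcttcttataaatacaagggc

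The neighbours CXCL8 and CXCL6 shared the same 9 letters, GGAATTTCC, starting 91 bases before the start in CXCL8 and 89 bases before it in CXCL6, and these letters match on both strands. CXCL8 also held TGACTCA, starting 137 bases before the start, and a PU.1 match from base 86 to 81 that overlaps the NF-kB match. CXCL6 had a PU.1 match from base 8 to 3. CCL23 had no match to the NF-kB or AP-1 letters, a half-site match from base 46 to 41 and a PU.1 match from base 28 to 23. Among all 35116 promoter windows of this length, 17.1% held the NF-kB letters, 6.57% the AP-1 letters, 23.6% the PU.1 letters and 12.1% the half-site. These shares count every entry of the promoter table, whereas each measured gene counts with its most upstream start only. Of the 8 measured genes with an entry, 3 held the NF-kB letters (CXCL8, CXCL6 and CXCR4), 1 the AP-1 letters, 5 the PU.1 letters and 1 the half-site. The windows of CCR1, CX3CR1 and CXCR2 held none of the 4 patterns as spelled here. GAGGAA is only 1 form of the site of PU.1 and related ETS factors, and other forms were not counted. All 3 windows held AGGAAGTG, so they cannot be said to lack such sites. A match describes letters only, and binding was not measured.

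Levels below are log2 intensities of 1 probe set and are not set against those of another gene. Groups were compared with limma across 20552 probe sets that exceeded the filter on at least 3 of the 6 arrays, with Benjamini-Hochberg adjustment over all of them and a threshold of 0.05. In all 9836 genes tested, 66.5% were called in 1 direction or the other, 35.8% higher and 30.7% lower in induced samples. Among the chemokine and receptor genes 4 were called higher and 5 lower. Their groups did not overlap in 9 of 9 cases, as in 74.4% of all genes. CXCL6 passed the filter only through the uninduced arrays and CXCR3 only through the induced ones, so both had to differ. The same holds for every probe set given below with a fold of "at least", and its p supports nothing beyond that. The median difference of the 9 was -0.90 and that of all tested genes 0.02. In bulk RNA, fewer cells that express a gene and less RNA per cell cannot be told apart.

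**Figure D1:**
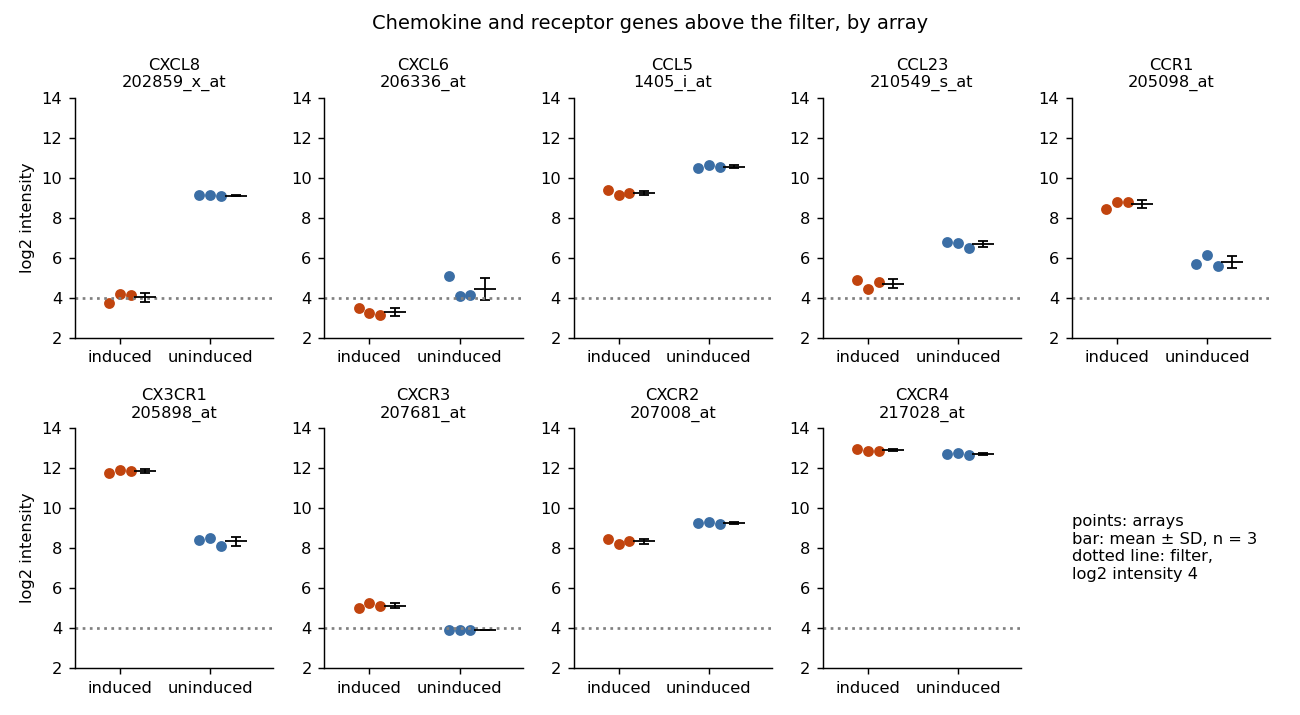
Log2 intensity (vertical axis) on each induced (red) and uninduced (blue) array for the 9 genes above the filter, with the mean and SD of 3 arrays as a black bar. CXCL8, CXCL6, CCL5, CCL23 and CXCR2 sit lower and CCR1, CX3CR1 and CXCR3 higher in induced samples, while the CXCR4 means differ by 0.18.

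Among the ligands, CXCL8 (interleukin-8), the chief neutrophil attractant of human monocytic cells, had values of 3.74, 4.19 and 4.12 in induced samples, against 9.12, 9.12 and 9.08 in uninduced samples. Every uninduced array was far above every induced one, and 2 of the 3 induced arrays exceeded the filter, so no fold is given. The log2 difference was -5.09 (95% confidence interval -5.38 to -4.80; limma, adjusted p = 4.26e-07), to an induced level that lies at the filter. This probe set ends in _x_at, a class that can bind several transcripts. The other CXCL8 probe set read 3.03, 3.28 and 3.27 in induced samples, against 5.83, 5.90 and 5.11 in uninduced samples. That is at least 3.06-fold lower, taking the filter as the induced level; this probe set passed the filter only through the uninduced arrays. The mean over both probe sets gave -3.76.

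CXCL6, a granulocyte attractant that shares CXCR1 and CXCR2 with CXCL8, read 3.50, 3.26 and 3.12 in induced samples, against 5.07, 4.08 and 4.16 in uninduced samples. The groups did not overlap, but 2 of the uninduced arrays lay just above the filter and all induced arrays under it. The fall was at least 1.35-fold (difference -1.14, interval -1.76 to -0.51; limma, adjusted p = 0.0076). Without uninduced replicate 1, its highest array, the difference was -0.82 (limma, adjusted p = 0.0019). The filter had been applied with all arrays, so CXCL6 had to differ there too and this p adds no support. CXCL6 was the member closest above the filter; the closest below it was CCL28, a mucosal chemokine, with a highest value of 3.73.

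CCL5 (RANTES), which attracts monocytes, T cells and eosinophils, read 9.37, 9.15 and 9.23 in induced samples, against 10.48, 10.64 and 10.53 in uninduced samples. The lowest uninduced array was above the highest induced one, and the gene was 2.47-fold lower in induced samples (difference -1.30, interval -1.50 to -1.11; limma, adjusted p = 1.63e-05). Its other 2 probe sets gave log2 differences of -1.60 and -1.27 (adjusted p = 2.93e-05 and 2.35e-05), so 3 of 3 moved the same way.

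CCL23, a CCR1 ligand made by myeloid cells, read 4.90, 4.45 and 4.77 in induced samples, against 6.78, 6.74 and 6.50 in uninduced samples. All arrays exceeded the filter and the groups were well apart. Its fall was 3.91-fold (difference -1.97, interval -2.29 to -1.65; limma, adjusted p = 2.33e-05). The second CCL23 probe set stayed below the filter, at a mean of 2.41 in induced and 2.46 in uninduced samples.

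Among the receptors, CX3CR1, the receptor of the membrane-bound chemokine fractalkine and a marker of patrolling monocytes and cytotoxic lymphocytes, read 11.74, 11.93 and 11.86 in induced samples, against 8.41, 8.51 and 8.08 in uninduced samples. It was clearly above the filter in both groups and 11.4-fold higher in induced samples (difference 3.51, interval 3.22 to 3.80; limma, adjusted p = 1.59e-06). Ranked from the highest, this difference was number 85 of 9836. Its second probe set stayed below the filter in both groups, at means of 2.76 in induced and 2.69 in uninduced samples.

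CCR1, a receptor of inflammatory CC chemokines on monocytes and neutrophils, read 8.44, 8.79 and 8.81 in induced samples, against 5.67, 6.12 and 5.60 in uninduced samples. It was 7.40-fold higher in induced samples (difference 2.89, interval 2.50 to 3.28; limma, adjusted p = 1.08e-05), number 132 of 9836 from the highest. The groups were far apart on both CCR1 probe sets, and the other one was 4.08-fold higher (adjusted p = 6.40e-06).

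CXCR3, best known from activated T and natural killer cells, read 4.996, 5.25 and 5.08 in induced samples, against 3.88, 3.88 and 3.89 in uninduced samples. All uninduced arrays were under the filter and all induced ones over it. The rise was at least 2.16-fold (difference 1.22, interval 1.04 to 1.41; limma, adjusted p = 1.70e-05). Its second probe set, at least 1.79-fold higher, also passed the filter only through the induced arrays.

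CXCR2, the neutrophil receptor for CXCL8 and CXCL6, read 8.43, 8.21 and 8.37 in induced samples, against 9.24, 9.30 and 9.18 in uninduced samples. It thus moved opposite to CCR1, CX3CR1 and CXCR3, and was 1.87-fold lower in induced samples (difference -0.90, interval -1.09 to -0.72; limma, adjusted p = 6.87e-05).

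CXCR4, the receptor of CXCL12 that retains blood cell precursors in the bone marrow, read 12.94, 12.86 and 12.87 in induced samples, against 12.72, 12.76 and 12.65 in uninduced samples. The groups did not overlap, but were close: 1.13-fold higher (difference 0.18, interval 0.03 to 0.33; limma, adjusted p = 0.041). Its other 2 probe sets differed by 0.03 and by 0.0057 and did not pass (adjusted p = 0.869, interval -0.26 to 0.31, and adjusted p = 0.966, interval -0.22 to 0.23). Each time 1 array was left out, the adjusted p of CXCR4 rose above the threshold, to between 0.058 (without uninduced replicate 2) and 0.118 (without induced replicate 1). It was 0.077 with the replicate number as a block, 0.188 after median centring and 0.457 for the mean over its probe sets.

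**Figure D2:**
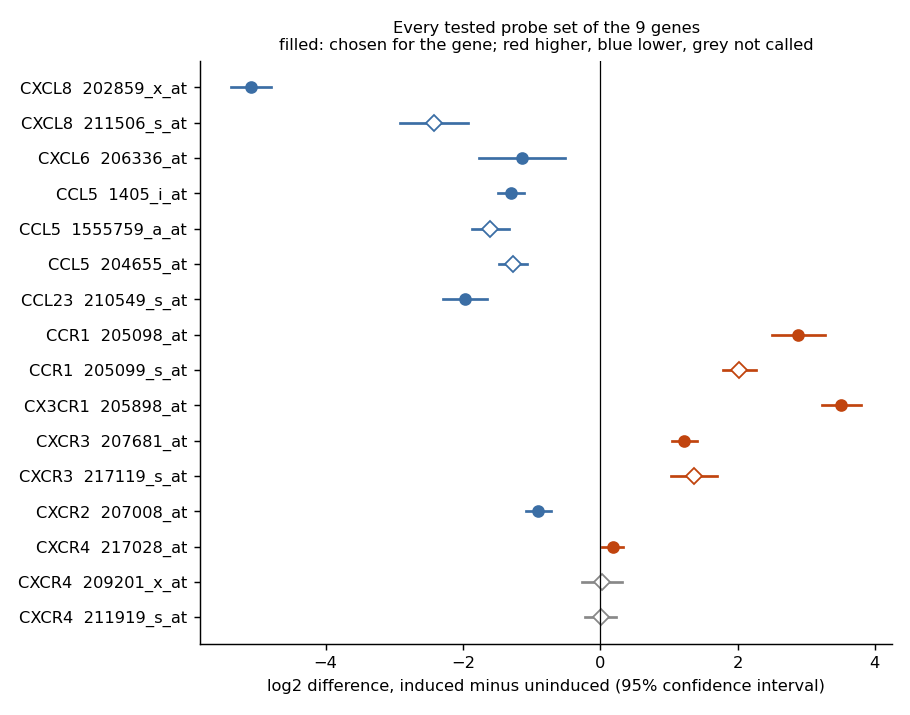
Log2 difference, induced minus uninduced, with its 95% confidence interval (horizontal axis) for the 16 tested probe sets of the 9 genes (rows); filled symbols are the probe sets that represent a gene. Probe sets of CCL5 and CCR1 lie on 1 side of zero for each gene, as do those of CXCL8 and CXCR3, of which 1 and 2 had to differ through the filter, and of the 3 CXCR4 probe sets only the one that represents the gene has an interval that leaves out zero.

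The changes can be set beside each other by ligand and receptor. CXCL8 and CXCL6 fell together with their receptor CXCR2, while the other receptor of both, CXCR1, stayed under the filter, with means of 2.07 in induced and 2.10 in uninduced samples. The CCR1 ligands CCL5 and CCL23 fell while CCR1 rose. For CX3CR1, CXCR3 and CXCR4 no ligand exceeded the filter: CX3CL1 had means of 2.05 in induced and 2.06 in uninduced samples, CXCL9 of 1.69 in both, CXCL10 of 2.27 and 2.09, CXCL11 of 3.07 and 2.91, and CXCL12 of 2.53 and 2.55.

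The 43 genes at or below the filter on all arrays had values from 1.59 to 3.73. They were 18 CC ligands, among them CCL2, CCL4, CCL7, CCL20 and CCL22; 12 CXC ligands, among them CXCL1, CXCL2, CXCL3, CXCL5 and CXCL16; CX3CL1 and XCL1; 7 CC receptors (CCR2, CCR4, CCR6, CCR7, CCR8, CCR9 and CCR10); CXCR1, CXCR5 and CXCR6; and XCR1. The remaining CC ligands were CCL1, CCL8, CCL11, CCL16, CCL17, CCL18, CCL19, CCL21, CCL24, CCL25, CCL26, CCL27 and CCL28, and the remaining CXC ligands CXCL9, CXCL10, CXCL11, CXCL12, CXCL13, CXCL14 and CXCL17. On the probe sets that stand for these genes, group means differed by at most 0.17 on the log2 scale, which was CXCL10 (adjusted p = 0.525 in the fit with no filter). A further CXCL2 probe set, also under the filter, read 2.89, 2.96 and 2.96 in induced samples, against 3.59, 3.35 and 3.10 in uninduced samples; the groups did not overlap, and the difference of -0.41 did not pass in that fit (adjusted p = 0.089). The method that made the values draws dim probe sets towards a common level, so changes at such levels may be compressed.

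**Figure D3:**
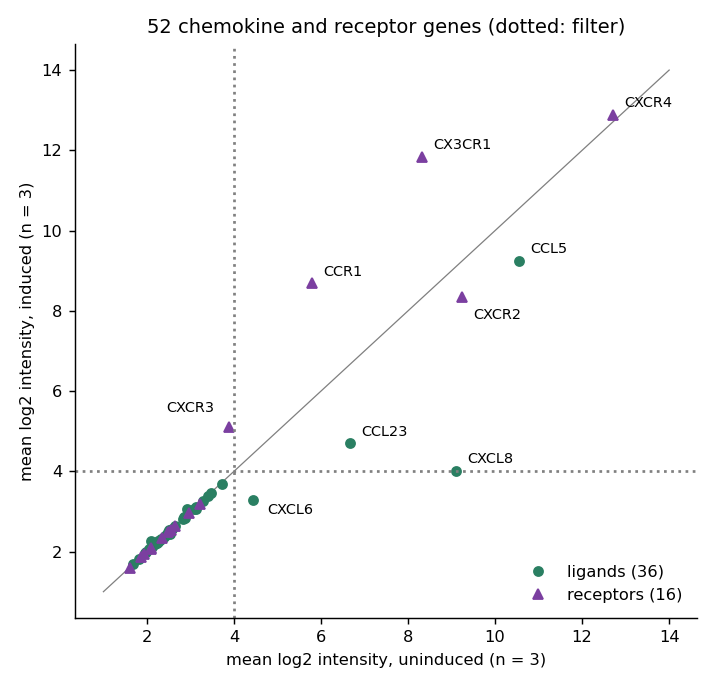
Mean log2 intensity of 3 induced arrays (vertical axis) against that of 3 uninduced arrays (horizontal axis) for the 52 genes, 36 ligands as circles and 16 receptors as triangles, with the filter at 4 as dotted lines. Below the filter the 43 dim genes follow the diagonal, and of the others CCR1, CX3CR1 and CXCR3 lie above it and the 4 ligands and CXCR2 below it.

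Several of these genes are neighbours on a chromosome. In the order of coding genes in the NCBI gene table, CXCL8 and CXCL6 stand side by side at the head of a run on chromosome 4 that goes on with PF4V1, CXCL1, PF4, PPBP, CXCL5, CXCL3 and CXCL2. Of the 6 members in that run only CXCL8 and CXCL6 exceeded the filter. The 3 platelet-type chemokine genes further along the run, PF4V1, PF4 and PPBP, had means of 2.31 to 3.26 in induced and 2.31 to 3.30 in uninduced samples. On chromosome 2, CXCR2 adjoins CXCR1, and on chromosome 3, CX3CR1 adjoins CCR8; in each pair only the first was measured. CCR1 was the single measured receptor in a run of 5 on chromosome 3 (CCR9, CXCR6, XCR1, CCR1 and CCR2, with 2 other coding genes among them). Of the run on chromosome 17 from CCL5 to CCL4, CCL5 and CCL23 were measured, and CCL16, CCL18 and CCL4 were not.

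Chemokine genes and receptors with names outside the rule, the atypical receptors ACKR1 to ACKR4 among them, were mostly not measured. Of 11 with a probe set, 1 passed the filter: GPR35, a receptor once proposed for CXCL17, which was at least 1.67-fold lower in induced samples, with a mean of 3.61 in induced and 4.74 in uninduced samples; it passed the filter only through the uninduced arrays and so had to differ. The counts of the lists that follow stand against 35.8% higher and 30.7% lower calls, 66.5% in all, over all genes, and nothing particular to a list is read from them. Among 8 measured receptors for other attractants, 4 rose and 3 fell, with a median difference of 0.45. Of these 7, FPR1, P2RY2 and LTB4R passed the filter through 1 group only and had to differ. C3AR1, 1 of the 4 that rose, lost its call without induced replicate 1 or 2 and without uninduced replicate 1 or 3. FPR1, the receptor of bacterial formyl peptides, was at least 1.77-fold higher (mean 4.82 in induced and 1.41 in uninduced samples), and the complement receptor C5AR1 was 4.05-fold higher. The nucleotide receptor P2RY2 was at least 4.01-fold lower (mean 2.07 in induced and 6.005 in uninduced samples) and LTB4R, the receptor of leukotriene B4, at least 5.69-fold lower. GPR183, named as the 1 that did not pass, differed by 0.02 (adjusted p = 0.874).

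Downstream of the receptors, 14 of 28 measured G protein subunits and effectors rose, 3 fell and 11 did not pass, against 35.8% higher and 30.7% lower over all genes, with a median difference of 0.19. The G protein subunit GNG2 was 12.3-fold higher (mean 11.90 in induced and 8.28 in uninduced samples; limma, adjusted p = 2.22e-07). WAS, which drives actin branching, was 5.04-fold higher, PIK3CG, the lipid kinase switched on by G proteins in leukocytes, 1.96-fold, and the G protein subunit GNA15 2.34-fold. After median centring of the arrays the counts were 13 and 5. PIK3R5, ELMO1 and PLCB3, the 3 counted as falling above, were 3.04-fold, 1.57-fold and 1.33-fold lower. PLCB3 lost its call without uninduced replicate 1. Of 13 measured genes that end receptor signalling, 6 rose and 5 fell, against 35.8% higher and 30.7% lower over all genes. The counts were 5 and 6 of 12 after quantile normalization, 6 and 6 after median centring, and 4 and 5 without induced replicate 1. The balance of calls thus turned with the scaling and also with the arrays used. RGS3, 1 of the 6 that rose, passed the filter only through the induced arrays and had to differ. GRK2 and GRK3, kinases that mark active receptors for arrestin, were 6.62-fold and 2.90-fold lower, while RGS14 and RGS16, which speed the shut-off of G proteins, were 2.67-fold and 1.88-fold higher. Proteases known to cut chemokines fell in 5 and rose in 4 of 10 measured cases, against the same shares of 30.7% lower and 35.8% higher over all genes. The neutrophil proteases PRTN3, ELANE and CTSG were 9.90-fold, 6.95-fold and 3.50-fold lower and CTSD, a lysosomal protease, 2.33-fold lower. ADAM10 and ADAM17, which release CX3CL1 and CXCL16 from the membrane, were 1.68-fold and 1.92-fold higher; both were chosen after their values were seen.

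**Figure D4:**
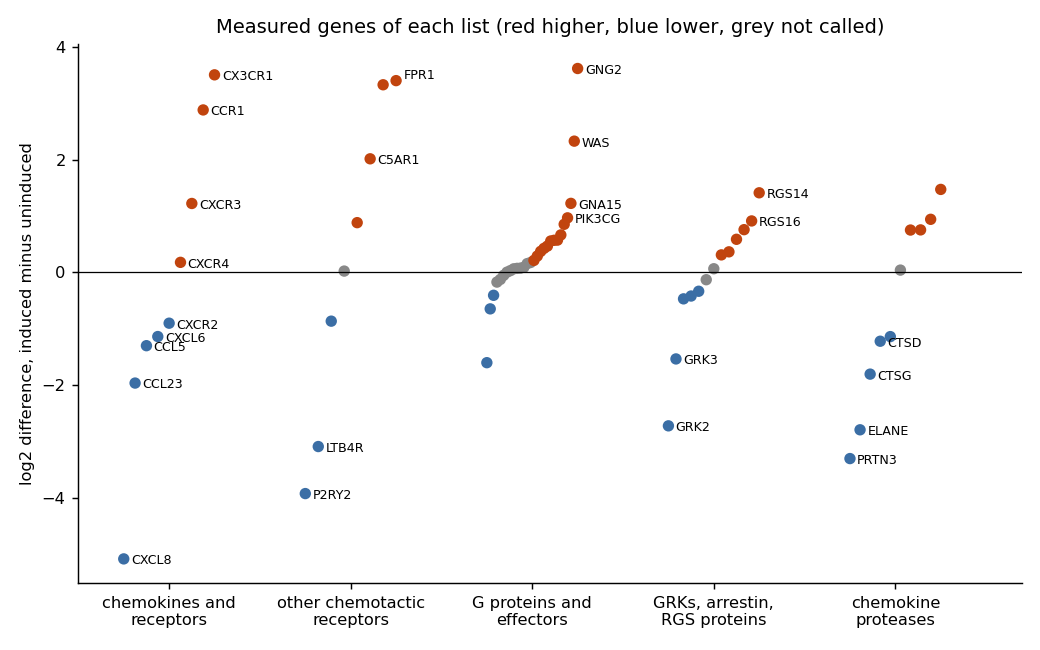
Log2 difference, induced minus uninduced (vertical axis), for the measured genes of each list, ordered by size within a list, with genes named by the rule labelled. The 9 chemokine and receptor genes run from -5.09 (CXCL8) to 3.51 (CX3CR1), and GNG2, at 3.62, leads the G proteins and effectors.

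The label of the cells was checked against markers. Of 14 myeloid markers with a probe set, 12 passed the filter, while FCGR1A and MPO stayed below it. Of the 12, 5 rose and 7 fell, and their summed intensity was 29894 to 30974 in induced and 41822 to 46577 in uninduced samples. The proteases PRTN3 and ELANE, given above, were lower, PTPRC, the leukocyte antigen CD45, was 3.41-fold higher, and SPI1, the myeloid factor PU.1, was at least 8.70-fold lower, with means of 3.16 in induced and 7.12 in uninduced samples. These shifts of the cells' own markers moved with the chemokine and receptor genes, and their part was not tested. All 6 T cell markers and 3 of 3 erythroid markers stayed below the filter. Of 4 B cell markers PAX5 passed it, with means of 4.76 in induced and 4.90 in uninduced samples (adjusted p = 0.128), and CD79B exceeded it on 2 induced arrays only and was not tested. Summed over the list, intensity was 60.6 to 65.5 in induced and 56.5 to 58.3 in uninduced samples. Of 7 fibroblast or epithelial markers COL1A1 passed the filter, 1.46-fold lower in induced samples (mean 7.71 in induced and 8.26 in uninduced samples), as did KRT8, at 5.67 in both groups (adjusted p = 0.981), and the sum was 286 to 307 in induced and 381 to 404 in uninduced samples. The part of either list in the results was not tested. Of 4 natural killer cell markers, KLRF1 (6.15-fold) and NCAM1 (2.17-fold) were higher in induced samples and KLRD1 and NCR1 stayed below the filter. Their summed intensity was 1263 to 1379 in induced and 448 to 527 in uninduced samples; it moved with CX3CR1 and CXCR3, and its part in these results was not tested. As a sign of RNA integrity, GAPDH control signal at the 3' end exceeded that at the 5' end, on the log2 scale, by 0.555 to 0.619 in induced and 0.481 to 0.530 in uninduced samples, and its part was not tested either. As a check of induction, 1 of the 5 RARA probe sets had means of 7.58 in induced and 1.87 in uninduced samples. The other 4 were not higher: 1 read 3.99 in induced and 5.16 in uninduced samples, 2 more read 5.05 and 5.04 in induced and 5.27 and 5.16 in uninduced samples, and the last read 1.91 in both. Which part of the transcript each covers was not analysed here.

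**Figure D5:**
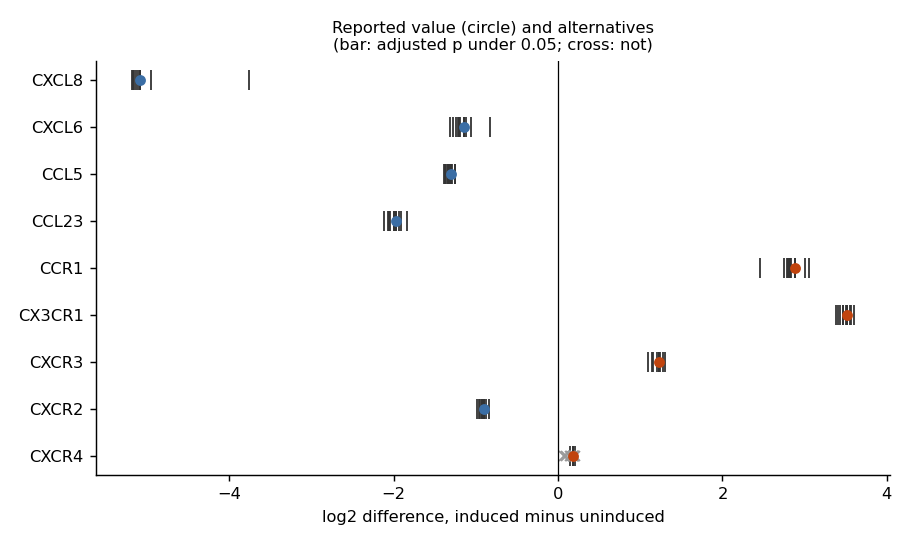
Log2 difference, induced minus uninduced (horizontal axis), for the 9 genes as reported (circle) and under up to 15 other settings of the analysis (bars where the adjusted p stayed under 0.05, crosses where it did not). Crosses occur for CXCR4 only, and the bar of CXCL8 at -3.76 is the mean over its probe sets. CXCL6 passed the filter only through the uninduced arrays and CXCR3 only through the induced ones, so their bars add no support where this filter was kept.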

How the data were processed

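Each of the 6 samples has 1 column of intensities, 1 value per probe set on a linear scale, which the authors made with GCRMA and deposited, per the submitters' processing notes; the sources used here give neither a version nor any later scaling. Values ran from 0.914 to 122290. The log2 was taken here after raising the 6 values under 1 to 1; 62 control probe sets were left out. The members and all lists were chosen with earlier results of these data known. Probe sets above a log2 value of 4 on at least 3 arrays were tested with limma 3.58.1 under R 4.3.3, two-sided and without covariates, by lmFit, eBayes and Benjamini-Hochberg adjustment, and the fit was tested on simulated data. The brightest tested probe set, by its mean, stood for a gene. Annotation symbols of all 52 members matched the NCBI gene table, with 0 updates. Without detection calls, a group at or below 4 on all 3 arrays gives a fold as "at least", against 4. Named were all members and, per list, up to 4 called genes with the smallest adjusted p. ADAM10, ADAM17, C3AR1, GPR183, RGS3, PIK3R5, ELMO1, PLCB3 and further cell type markers were named after their values were seen. Figures: matplotlib 3.10.9, Python 3.11.15. The number of arrays limits the precision.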

Additional observations from a re-analysis of the deposited data

How the results depend on the processing

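CXCL8, CXCL6, CCL5, CCL23, CCR1, CX3CR1, CXCR3 and CXCR2 kept their direction and passed the test under every alternative that measured them. CXCL6 passed the filter only through the uninduced arrays and CXCR3 only through the induced ones. For these genes, passing in a fit that kept this filter adds no support. The adjusted p of CXCL6 reached 0.0491 with no filter, and the other 7 had at most 5.31e-04. A filter at a log2 value of 6 left CXCL6 and CXCR3 out. Leaving out _x_at and _s_at probe sets meant that CXCL8 and CCL23 could not be measured. That left 4 genes higher, and 3 lower in place of 5, against 2652 and 2187 of all 7309 genes tested there. CXCR4 alone lost its call, in 9 of 15 alternatives, with a range from 0.07 to 0.21; the cause was not tested. Counts with 1 array left out were 3 genes higher and 5 lower each time, against 3218 to 3344 and 2612 to 3262 of all 9836 genes. Of the 20552 tested probe sets, 7112 were higher and 5733 lower. Leaving out 1 array gave 6455 to 6758 and 4914 to 6312. Fewer features were tested with probe sets averaged by gene (3569 higher, 3178 lower) and without _x_at and _s_at probe sets (4365 and 3172). Quantile normalization and median centring gave 6750 and 6579 higher against 8111 and 7106 lower probe sets, and moved the median of all genes by -0.07 and -0.08.

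Same-numbered samples did not deviate together (r = -0.173, 4.6e-04 and 0.180), so the replicate numbers were not taken as pairs. With the replicate number as a block, 3 chemokine and receptor genes were higher and 5 lower, against 3463 and 2963 of all 9836 genes. Of the chemokine and receptor genes, the block changed the call of CXCR4 only, where the difference stayed 0.18.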

Other observations

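Probe sets that the annotation gives to several chemokine genes were assigned to no gene. There were 4 of them, and all stayed below the filter, with means of 2.18 to 3.24 in induced and 2.19 to 3.21 in uninduced samples.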
